A study of Rattus norvegicus with 3 samples.

Results

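Collagens and a set of stromal matrix genes were followed in preparations of rat renal proximal tubules. The members were all probe sets whose annotation names exactly 1 gene, where that gene is a collagen chain by its symbol or is Fn1, Sparc, Lum, Dcn, Mgp, Pdgfra, Pdgfrb or Aebp1. The rule reads gene names only and uses no measured value. The rule found 70 probe sets of 49 genes, out of 20826 probe sets of 14217 named genes: 41 collagen genes with 58 probe sets and 8 other genes with 12. The tubules came from the renal cortex of Sprague-Dawley males, 7 to 8 weeks old, given 250 units of heparin 30 min before they were killed. After perfusion with 10 ml of cold buffered saline and 10 ml of collagenase solution (2 mg/ml), the cortex was kept in collagenase for 20 min and tubules were taken from a 42.5% Percoll density gradient. Collagenase cuts the collagen proteins that hold tubules in the cortex, and all 3 preparations had been through it. Each preparation was measured on 1 Affymetrix array, so the samples used here are 1 group of 3 arrays, all from digested cortex, with no group to compare them with. Nothing in the labels tells whether the preparations came from different animals, so the spread between arrays may be technical.

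Collagens are trimers of chains wound into a triple helix, and the types differ in where they are laid down. Type IV forms the sheet-like network of the basement membrane on which every tubule rests, and epithelial and endothelial cells make it themselves. Fibrillar collagens such as types I, III and V and the beaded filaments of type VI fill the interstitium and are made mainly by fibroblasts and pericytes. In the healthy kidney cortex the interstitium is thin, and its widening with these fibrillar collagens is a hallmark of renal fibrosis.

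Values are deposited probe-set signals on a linear scale, written as mean ± SD (n = 3 arrays) or as the signals on arrays 1, 2 and 3 in that order. Over all probe sets except controls the median signal was 37.1, 37.4 and 34.9, and a probe set is called above the array median when it exceeded that value on all 3 arrays. Detection p-values were not used here, so a signal under the median does not show that a transcript was absent. Probe sets differ in affinity. The array median is taken over all of them, so the side on which a probe set lies depends in part on its affinity. A difference in level between probe sets is not read as a difference in transcript amount. All 14 measured genes of a proximal tubule marker list were above the array median, among them Slc34a1, the sodium-phosphate cotransporter, with 9616 ± 380.3. So were 7 of 8 genes of a thick limb and distal tubule list, among them Umod with 4942 ± 656. The share over all named genes was 61.0%. The purity of the preparations was not tested. On the control probe sets, signal at the 3' end exceeded that at the 5' end 3.85-, 3.28- and 3.66-fold for beta-actin and 1.52-, 1.52- and 1.40-fold for GAPDH. The part of RNA quality in the values below was not tested.

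The first question was which matrix genes stood above the array median at all. Of the 70 member probe sets, 19 did, or 27.1%, against 54.5% of all probe sets that name 1 gene. By gene, 16 of 49 members had at least 1 such probe set, against 61.0% of all named genes. Another 41 member probe sets were at or below the median on every array, and 10 lay on different sides on different arrays. The collagens alone gave 11 of 41 genes, and they were unevenly spread over the types: 4 of 5 type IV genes and both multiplexin genes, but 2 of 11 fibrillar, 1 of 5 type VI and 2 of 9 fibril-associated genes. None of the 4 transmembrane collagens (Col13a1, Col17a1, Col23a1 and Col25a1), of the 4 other network-forming and anchoring collagens (Col7a1, Col8a1, Col8a2 and Col10a1) or Col26a1 was above it on all 3 arrays. Of the 8 other genes, Fn1, Sparc, Mgp, Aebp1 and Pdgfra were above, and Lum, Dcn and Pdgfrb were not. With the line at the 25th or the 75th percentile of each array, 38 or 10 member probe sets lay above it. The share over all probe sets was not computed at these lines. These groups are small, and no difference between them was tested.

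**Figure D1:**
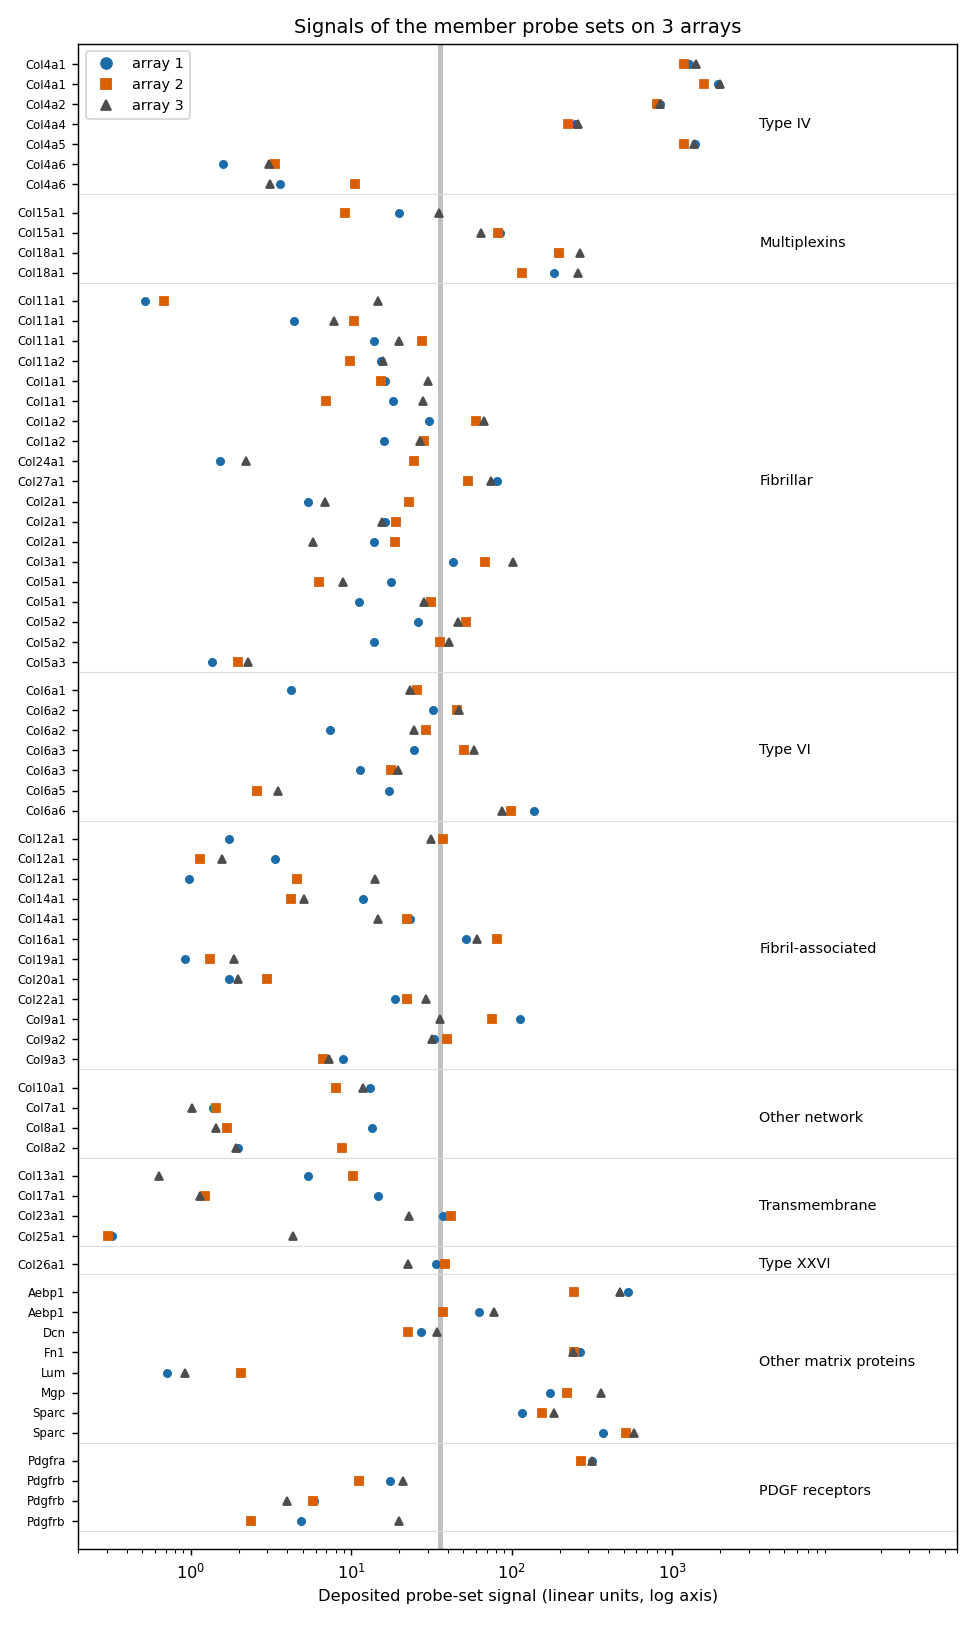
Deposited signal of each of the 70 member probe sets (log axis) on arrays 1, 2 and 3, grouped by the type of collagen or matrix protein; each point is 1 array and the grey band spans the 3 array medians (34.9 to 37.4). The type IV chains other than Col4a6 lie far to the right of the band on every array, while most fibrillar, type VI and fibril-associated probe sets lie on it or to its left.

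Type IV collagen was above the array median for Col4a1, Col4a2, Col4a4 and Col4a5 on every array, and under it for Col4a6. Col4a1 and Col4a2, the chains of the network found in nearly all basement membranes, are encoded by neighbouring genes that start back to back. Col4a5 joins Col4a3 and Col4a4 in the network of the mature glomerulus and some tubules, or pairs with Col4a6 in Bowman's capsule and around smooth muscle. The promoter windows of members on both sides of the median are shown because these genes lie in head-to-head pairs. Each is the RefSeq window of build GRCr8, 5' to 3' on the gene's strand, with 250 bases before the annotated start and 50 from the start on. Capitals mark 3 motifs searched on both strands. The TATA box was searched as TATAAA. The GC box was searched as GGGCGG. The third motif, the CCAAT box, is spelled by its name, and none of them contains another. The windows are Col4a1, plus strand, chr16:84885347-84885646, Col4a5, plus strand, chrX:109907109-109907408, and Col4a6, minus strand, chrX:109905895-109906194. Col1a2, plus strand, chr4:33518307-33518606, is added as a fibrillar chain.
Col4a1: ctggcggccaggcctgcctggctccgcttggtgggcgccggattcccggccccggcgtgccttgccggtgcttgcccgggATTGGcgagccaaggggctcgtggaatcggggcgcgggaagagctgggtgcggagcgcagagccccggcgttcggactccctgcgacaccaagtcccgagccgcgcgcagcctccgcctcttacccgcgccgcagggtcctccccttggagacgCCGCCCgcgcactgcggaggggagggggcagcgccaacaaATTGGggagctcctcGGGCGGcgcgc
Col4a5: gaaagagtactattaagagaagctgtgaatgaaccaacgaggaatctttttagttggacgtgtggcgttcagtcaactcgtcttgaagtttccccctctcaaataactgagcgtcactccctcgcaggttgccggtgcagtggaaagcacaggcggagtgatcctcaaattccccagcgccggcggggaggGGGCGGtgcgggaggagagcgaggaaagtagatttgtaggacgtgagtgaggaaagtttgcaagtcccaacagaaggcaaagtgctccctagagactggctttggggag
Col4a6: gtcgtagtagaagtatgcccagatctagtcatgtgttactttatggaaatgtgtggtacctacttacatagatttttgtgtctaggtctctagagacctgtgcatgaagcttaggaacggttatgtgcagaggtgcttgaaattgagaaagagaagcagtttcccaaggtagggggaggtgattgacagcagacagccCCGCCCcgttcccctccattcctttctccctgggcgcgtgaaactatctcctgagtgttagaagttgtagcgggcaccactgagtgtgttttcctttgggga
Col1a2: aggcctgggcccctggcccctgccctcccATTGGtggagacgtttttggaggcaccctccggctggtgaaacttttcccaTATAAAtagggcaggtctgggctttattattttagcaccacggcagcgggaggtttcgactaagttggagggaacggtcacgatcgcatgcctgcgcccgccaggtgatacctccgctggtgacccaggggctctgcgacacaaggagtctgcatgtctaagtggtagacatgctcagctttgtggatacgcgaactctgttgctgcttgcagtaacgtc

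The annotated starts of Col4a1 and Col4a2 are 77 bases apart on opposite strands, so their windows share 176 bases. Bases G and C make up 75% of the Col4a1 window, and it has 38 CpG sites, against medians of 51.7% and 7 over all 33469 windows. It holds 2 GC boxes, 2 CCAAT boxes and no TATA box, and the Col4a2 window, which is not printed, holds 2, 1 and 0. The starts of Col4a5 and Col4a6 lie 1415 bases apart, so their windows do not overlap, and each holds 1 GC box and neither of the other motifs. The Col4a5 window has 15 CpG sites and the Col4a6 window 7. The Col1a2 window holds TATAAA 170 bases before the annotated start and 1 CCAAT box. Windows were given for 36 of the 49 member genes, 39 windows in all. TATAAA stood in 10.3% of them against 14.2% of all windows, GGGCGG in 51.3% against 33.1%, and CCAAT in 30.8% against 37.5%. These matches are descriptions of letters and not of bound sites.

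Both probe sets of Col4a1 were high on every array, with signals of 1923, 1587 and 1988 for one and 1275, 1179.8 and 1414 for the other. Col4a2 gave 843, 806 and 841, a mean of 829.9 ± 20.8, and its range over the arrays was only 0.13 on the log2 scale. Both members of this gene pair were thus well above the median, and array 2 was lowest in each. Col4a5, whose defects cause X-linked Alport syndrome, gave 1389, 1190.3 and 1362. Col4a4, another Alport gene, gave 248, 223 and 260.2, or 244 ± 18.9. Its head-to-head neighbour Col4a3, whose start is 413 bases away, had no probe set in the rule and is not analysed here. Col4a6 stood on the other side of the median: its probe sets gave 3.59, 10.5 and 3.12 and 1.58, 3.35 and 3.08, under the median on every array. The pair Col4a5 and Col4a6 was therefore divided by the array median on all 3 arrays, while Col4a1 and Col4a2 were not. All 5 type IV probe sets above the median were lowest on array 2, a position shared by 52.1% of all probe sets above the median. With quantile normalization, 3 of the 5 were lowest there.

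The multiplexins Col15a1 and Col18a1 are proteoglycan collagens of the basement membrane zone, and the end of the Col18a1 chain can be released as endostatin. Col18a1 was above the median with both probe sets, at 193, 199 and 266 and at 183, 117 and 261. Array 3 was highest for both, but the probe sets did not share the array of lowest signal. The second of them ranged by 1.13 on the log2 scale. For Col15a1, one probe set gave 85.2, 82.3 and 64.9 and was above the median, whereas the other gave 20.0, 9.13 and 35.5 and exceeded it on array 3 only. A gene-level call for Col15a1 thus rests on 1 of its 2 probe sets.

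Fibrillar collagen chains were mostly at or under the array median. Neither probe set of Col1a1, the main chain of type I collagen, exceeded it on any array, with 16.2, 15.4 and 30.3 and 18.2, 7.02 and 28.0. Its partner chain Col1a2 gave 30.4, 60.1 and 67.6 with one probe set and 16.1, 28.5 and 26.9 with the other, so only the first passed the median, on arrays 2 and 3. Type III collagen, Col3a1, was above the median on all 3 arrays with 43.2, 68.6 and 102, and array 1 exceeded the median by few units. Of the type V chains, which help to set the width of type I fibrils, Col5a2 gave 26.1, 51.6 and 46.6 and 13.9, 35.6 and 40.7. Col5a1 gave 11.2, 31.5 and 28.6 and 17.7, 6.28 and 8.90, and Col5a3 gave 1.36, 1.96 and 2.28, both under the median throughout. Array 1 was lowest for both probe sets of Col1a2 and of Col5a2, but those of Col5a1 put different arrays lowest. Col27a1, a fibrillar collagen of cartilage, gave 81.1, 53.3 and 74.4 and was the other fibrillar gene above the median. The cartilage chains Col2a1, Col11a1 and Col11a2 and the minor chain Col24a1 stayed under it with all of their probe sets, with signals between 0.522 and 27.6.

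Type VI chains form beaded filaments close to cell surfaces. Col6a1 was under the median with 4.24, 25.7 and 23.4. Col6a2 gave 32.2, 45.4 and 47.0 with its brighter probe set and 7.44, 29.4 and 24.8 with the other. Col6a3 gave 24.8, 50.4 and 58.7 and 11.3, 17.6 and 19.7. In each of these 3 genes, which encode the classical trimer, array 1 was lowest with every probe set. Col6a6, a later-found chain, ran the other way with 139, 99.6 and 86.6, the only type VI gene above the median on all arrays, and Col6a5 gave 17.2, 2.60 and 3.50, highest on array 1 but under the median.

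Fibril-associated collagens decorate the surface of fibrils. Col16a1 gave 52.3, 81.1 and 61.3 and was above the median throughout. Col9a1, a chain of type IX collagen of cartilage, gave 113, 75.3 and 35.6. On array 3 it exceeded the array median by less than 1 unit, and its range of 1.26 on the log2 scale was the widest of the members whose mean was above the median. The partner chains Col9a2 (32.8, 39.5 and 31.8) and Col9a3 (8.87, 6.70 and 7.28) were not above the median on all arrays. Col12a1, Col14a1, Col19a1, Col20a1 and Col22a1 were not above it either. One of the probe sets of Col12a1 gave 1.74, 37.3 and 31.7, the others at most 14.0.

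Among the other matrix proteins, Fn1, the gene of the adhesive glycoprotein fibronectin, had the narrowest range of the members above the median, with 265, 245 and 242 and a range of 0.12 on the log2 scale. Sparc, which encodes a collagen-binding protein of the secreted matrix, had probe sets at 371, 513 and 578 and 116, 156 and 183. Both put array 1 lowest and array 3 highest, with nearly equal deviations from their own means of -0.37, 0.07 and 0.31 and -0.34, 0.03 and 0.31 log2 units. Mgp, the inhibitor of vascular calcification, gave 172, 223 and 361 in the same order. Aebp1, which binds collagen fibrils, gave 533, 245 and 472 and 63.1, 37.3 and 77.3, and array 2 was lowest with both. Dcn and Lum encode small leucine-rich proteoglycans that coat collagen fibrils, and neither exceeded the median on any array. Dcn gave 27.2, 22.5 and 34.2 and Lum 0.708, 2.07 and 0.920. Each of these 2 genes had only 1 probe set.

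PDGF receptors mark stromal cells, Pdgfra mainly fibroblasts and Pdgfrb mainly pericytes and mesangial cells. Pdgfra was above the median on every array with 316, 272 and 319, from its single probe set. All 3 probe sets of Pdgfrb were under it, and the brightest gave 17.5, 11.1 and 21.2. The stromal name of the gene set therefore matched only part of what was measured: Pdgfra, Col3a1, Sparc and Mgp were above the median, but Col1a1, Dcn, Lum and Pdgfrb were not, and the type IV chains are also products of epithelium and endothelium. The number of stromal cells and their RNA per cell cannot be told apart in bulk tubules. With no group to compare with, a reduction in either was not tested.

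Genes that act with the members were read from lists chosen with earlier results of these data known. Of other basement membrane genes, 12 of 19 measured were above the median, against 61.0% of all genes. They included Tinag, the tubulointerstitial nephritis antigen of tubular basement membranes, at 3940.5 ± 473, the laminin chain Lamb1 at 817 ± 87.9 and the laminin-binding nidogen Nid2 at 477 ± 31.5. Frem2 gave 5.17 ± 0.652. Of other interstitial matrix genes, 8 of 31 were above it. These held Ltbp4, which tethers latent TGF-beta, at 179 ± 14.2, Efemp2 of elastic fibres at 92.3 ± 9.58, and the proteoglycan biglycan, Bgn, at 50.2, 87.3 and 123. Vtn, the gene of vitronectin, gave 0.978 ± 0.347.

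Enzymes and chaperones of collagen making gave 12 of 23 genes above the median (52.2%), near the 61.0% of all genes. They included Ppib (3153 ± 297) and P4hb (2943 ± 375), a prolyl isomerase and a protein disulfide isomerase that serve many secreted proteins, and Mia3 (1005 ± 161), which loads large cargo at endoplasmic reticulum exit sites. P4ha3, a catalytic subunit of prolyl hydroxylase, gave 4.10 ± 3.74. Matrix receptors gave 11 of 17 (64.7%), also near that share, with the syndecan Sdc4 at 3615 ± 270.1, the laminin-binding integrin chain Itga6 at 2690.4 ± 101 and its partner Itgb1 at 1364 ± 157, while the fibroblast collagen receptor chain Itga11 gave 1.26 ± 0.947. Proteases and their inhibitors gave 8 of 23 (34.8%). Timp3, an inhibitor that stays bound to the matrix, gave 5349 ± 407, Mmp24, a membrane-bound protease, 834 ± 197, Mmp11 211 ± 38.9 and the collagenase Mmp13 1.82 ± 1.70. Of the PDGF receptor ligands, Pdgfa (249.8 ± 26.8) and Pdgfc (130.2 ± 3.04), both ligands of Pdgfra, were above the median and Pdgfd, a ligand of Pdgfrb, was under it on all 3 arrays, with a mean of 4.10.

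**Figure D2:**
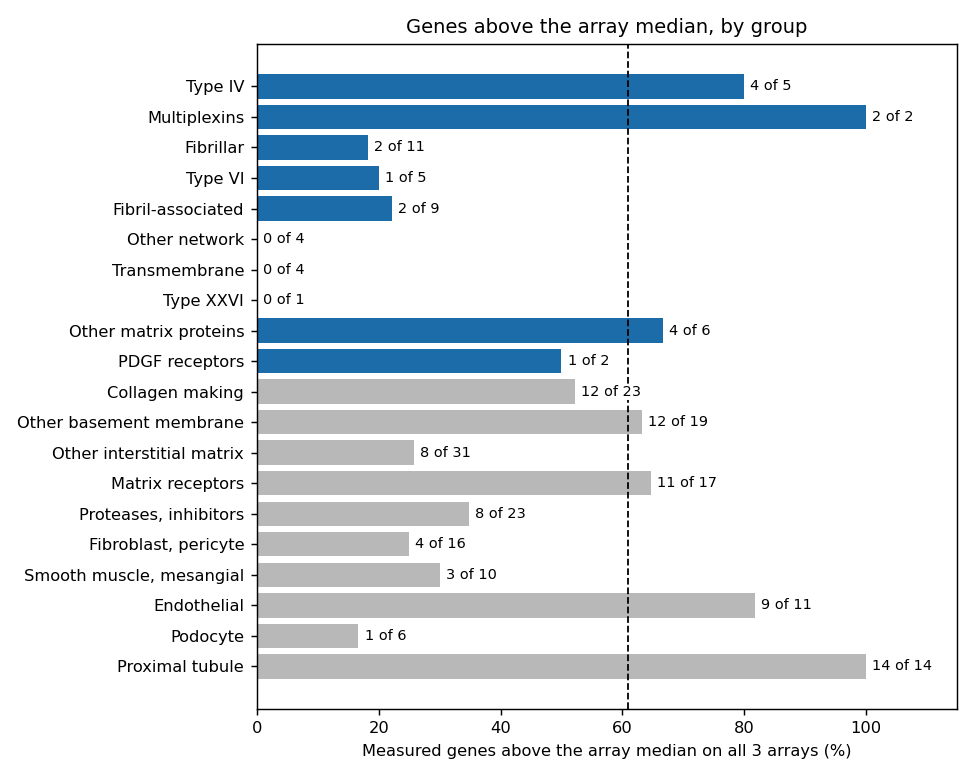
Share of the measured genes of each group that had a probe set above the array median on all 3 arrays, with the counts beside the bars; blue bars are members, grey bars are other lists and the dashed line is the 61.0% of all named genes. Type IV chains (4 of 5), multiplexins (2 of 2) and endothelial markers (9 of 11) lie to the right of the line, and fibrillar (2 of 11) and type VI (1 of 5) chains to its left.

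Differences between the preparations were read on log2(signal + 16) minus the array median, as the deviation of each probe set from its own mean over the arrays. Of the 19 member probe sets above the median, 10 were lowest on array 2 and 6 on array 1, against 52.1% and 19.1% of all probe sets above the median. The highest of the arrays was array 3 for 12 of the 19, against 34.7% of all. Their median deviation was 0.02, -0.13 and 0.14 log2 units on arrays 1, 2 and 3, beside 0.06, -0.07 and 0.01 over all probe sets above the median. The array 2 value was -0.038 under quantile normalization, -0.017 without the filter on low values and -0.059 without array 3. The array 3 value was 0.059 without array 2. Without array 1, the values on arrays 2 and 3 were -0.131 and 0.131. With 2 arrays left, the deviations are equal and opposite, so they are not the same measure as with 3. Fn1, with a range of 0.12, and Col4a2, with 0.13, varied least among them, and Col9a1 most.

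The fibrillar and type VI chains were most often lowest in preparation 1. Array 1 was lowest for 13 of 19 fibrillar and 5 of 7 type VI probe sets, 18 of 26 together. Of these 18, 17 were not above the median on all 3 arrays, out of 23 such probe sets in both groups. Among all probe sets not above it, 37.4% were lowest on array 1. These groups were joined after their values had been seen, and most of the signals are low. The median deviation was -0.29, 0.15 and 0.15 for fibrillar and -0.26, 0.08 and 0.20 for type VI chains on arrays 1, 2 and 3. Col1a2 deviated by -0.54, 0.17 and 0.37, Col3a1 by -0.52, -0.02 and 0.54, Col5a2 by -0.44, 0.24 and 0.20 and Col6a3 by -0.54, 0.15 and 0.39 with their brighter probe sets. Col1a1 did not share this order, with array 2 lowest in both of its probe sets. Type IV chains above the median deviated by 0.01, -0.15 and 0.13. Fibroblast and pericyte markers outside the rule did not share the pattern, with deviations of -0.03, 0.09 and -0.10 over 22 probe sets. Array 1 was lowest for 7 of these 22 and array 3 for 9. Of the 22, 18 were not above the median on all 3 arrays, so most of these signals are low too. Other interstitial matrix genes deviated by -0.07, -0.08 and 0.08 over 45 probe sets, 36 of them not above the median. Array 1 was lowest for 20 of the 45, against 27.5% of all probe sets that name 1 gene. A stromal source of the pattern was not tested.

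Markers of other cells differed between the arrays too. Endothelial marker probe sets had a median deviation of -0.29, -0.07 and 0.26, and their summed signal was 1220.2, 1478 and 1822 over 15 probe sets of 11 genes. Of these genes, 9 were above the median. For this list and those below, the share over all named genes was 61.0%. Array 1 was lowest for 9 of the 15 endothelial probe sets, against 27.5% of all probe sets that name 1 gene. Plvap, a protein of endothelial fenestrae, gave 185, 286 and 396 and Pecam1, an adhesion molecule of endothelium, 42.8, 74.2 and 137. Array 1 was lowest and array 3 highest for both, as for Col3a1, Sparc, Mgp and Bgn. The list was not uniform: Emcn and Tek were highest on array 2, Tie1, Vwf and Ehd3 were lowest on array 2, and Flt1 on array 3. Tek, Tie1 and Flt1 are named here after their values had been seen. Smooth muscle and mesangial markers summed to 376, 463 and 431 over 14 probe sets, with 3 of 10 genes above the median, and podocyte markers to 244, 299.8 and 273 over 12, with 1 of 6. The former deviated by -0.17, 0.03 and 0.07 and the latter by -0.02, 0.11 and 0.07. Acta2, the smooth muscle actin, gave 69.3, 76.1 and 72.9. Collecting duct markers, 4 of 9 genes above the median, summed to 1339.9, 1239.8 and 1460.5 and deviated by -0.17, -0.12 and 0.18. Macrophage markers, 3 of 10, summed to 5789, 3776 and 5791, mostly from Cd74 (4952, 3011 and 4827), and to 837, 765 and 964 without it. The whole list deviated by -0.05, -0.17 and 0.23. Thick limb and distal tubule markers, 7 of 8, deviated by 0.08, -0.20 and 0.11. Proximal tubule markers deviated by 0.07, -0.12 and 0.06. Array 1 was lowest for 9 of 14 smooth muscle and mesangial and 9 of 13 collecting duct probe sets, so this was not particular to endothelium. It was lowest for 4 of 12 podocyte, 3 of 11 macrophage, 1 of 8 thick limb and distal and 2 of 21 proximal tubule probe sets. No probe set that names 1 gene was at 0 on any array (lowest signal 0.0834), so marker signals above 0 do not show that these cells were present. The part of other cells in the matrix signals was not tested.

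**Figure D3:**
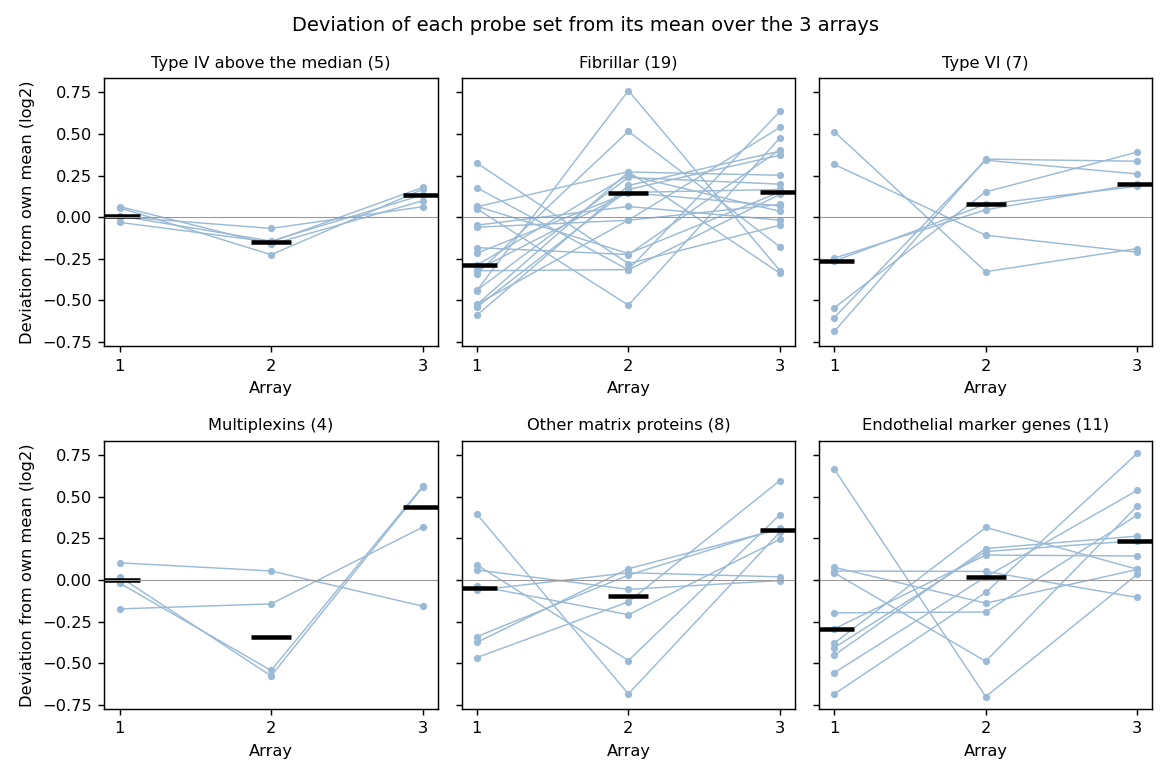
Deviation of each probe set from its own mean over the 3 arrays (log2 units) for type IV chains above the median, fibrillar chains, type VI chains, multiplexins, other matrix proteins and endothelial markers (1 probe set per gene); thin lines join the values of 1 probe set, black bars are medians, and the arrays have no order. On array 1 the median is -0.29 for fibrillar chains, -0.26 for type VI chains and 0.01 for type IV chains.

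Some members differed by 2-fold or more between preparations. Of 24 member probe sets with a mean signal above the median, 5 ranged by 2-fold or more over the arrays, against 2.34% of all such probe sets. With a mean between the median and the 75th percentile, 2 of 12 members did so against 3.39% of all, and with a mean above the 75th percentile 3 of 12 against 1.44%. They were Col9a1 (range 1.26 on the log2 scale), 1 of the Col18a1 probe sets (1.13), the brighter Aebp1 probe set (1.08), Col3a1 (1.06) and Mgp (1.06). Aebp1, Col3a1 and Mgp were close to the threshold of 1 log2 unit. Array 3 was highest for Col3a1, Mgp and Col18a1, and array 1 for Col9a1 and Aebp1. The count was 1 without array 1, 3 without array 2 and 1 without array 3, and 0 with a pseudocount of 64 in place of 16. Leaving out an array cannot widen the range of a probe set, and a larger pseudocount tends to narrow it. Lower counts were therefore likely beforehand, and the share over all probe sets was not recomputed under these settings.

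Genes with several probe sets allow the measurements to be checked within an array. Of the 17 member genes with 2 or 3 probe sets, 3 had all of them above the median (Col4a1, Col18a1 and Sparc), 12 had none, and 2 were divided (Col15a1 and Aebp1). In the 13 genes with exactly 2 probe sets, both named the same array as lowest in 9. Over all 3061 genes with 2 probe sets this share was 43.5%. The 9 were Aebp1, Col1a1, Col1a2, Col4a1, Col4a6, Col5a2, Col6a2, Col6a3 and Sparc. Both probe sets of Col1a1 and of Col4a6 were under the median on every array. Of the 4 genes with 3 probe sets, Col11a1 had the same lowest array in all of them, and Col12a1, Col2a1 and Pdgfrb did not.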

How the data were processed

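The authors deposited 1 table of array intensities, 1 linear signal per probe set and array, for 3 arrays and 31099 probe sets, of which 57 were controls. RNA was labelled by the standard Affymetrix protocol, per the labels' protocols; the summarisation software and the scaling between arrays are not given in the sources used here. Genes were named from the platform annotation of the probes, and all 70 member probe sets matched a RefSeq gene of GRCr8 by gene identifier, with 0 symbols changed. Signals were used as deposited for levels. For comparisons between arrays they were taken as log2(signal + 16) minus the median of the non-control probe sets of each array. Only 2 member probe sets carry a suffix for shared transcripts. No test was run, because the 3 arrays form 1 group; counts of members stand beside the same counts over all 1-gene probe sets. The number of arrays limits the precision. The members and gene lists were chosen with earlier results of these data known. Every member gene could be named; of the other lists, only the 3 genes of highest and the 1 of lowest mean signal, and genes with a mean above the median that ranged by 2-fold or more, with the value of the probe set of highest mean. Counting was checked on simulated data. Python 3.11.15 with pandas 2.3.3 and numpy 2.4.6 was used.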

Additional observations from a re-analysis of the deposited data

How the results depend on the processing

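Of 68 values recomputed under other settings, 56 stayed within 1.5 times the main count or, for a deviation, within 1 SD of the 3 array values. That SD was 0.135, about as large as the largest deviation itself (0.138), so a recomputed deviation could hardly leave it. All 12 values that moved were counts. Leaving out shared-transcript probe sets changed none of the results. The tally is therefore no measure of stability. With the line at the 25th percentile, 38 member probe sets and 31 genes were above it, and at the 75th percentile 10 and 9. The counts thus depend on where the line is set. The shares over all probe sets and genes were not computed at these 2 lines, so these counts have no background beside them. The count of 5 probe sets ranging by 2-fold or more became 8 with a pseudocount of 1, 0 with 64, 11 without a filter on low values and 3 above the 75th percentile, and from 1 to 3 when 1 array was left out, which cannot widen a range. The count of 18 fibrillar and type VI probe sets lowest on array 1, an added result, was 17 or 18 under the alternatives that kept all 3 arrays. It was 21 without array 2 and 19 without array 3, but there it could not fall, so these 2 values do not bear on its stability. Under quantile normalization, which was added for this count after seeing the data, 3 of the 5 type IV probe sets were lowest on array 2. The median deviation of the members on array 1 was 0.019 and changed sign under quantile normalization (-0.037), without a filter (-0.051) and without array 2 (-0.059). With 1 array left out, the deviations on the other 2 are equal and opposite. The sign change without array 2 was thus likely beforehand, because array 3 had the higher value. On array 2 it ranged from -0.146 to -0.017 and on array 3 from 0.059 to 0.180 over all settings. With no detection calls, low signals bound no level.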

Other observations

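Some genes that act on the matrix also ranged by 2-fold or more between the preparations. Itga1, the alpha chain of a collagen-binding integrin, gave 1364, 305 and 663 on arrays 1, 2 and 3, a range of 2.11 on the log2 scale, and Adamts1, a protease that cuts proteoglycans, gave 129, 272 and 99.6 (1.25). Each had 1 probe set, and the 2 genes differed in the array of highest signal. Vwf, the von Willebrand factor gene of endothelium, gave 97.6, 28.2 and 54.1, above the median on arrays 1 and 3 and highest on array 1, unlike Plvap and Pecam1.

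Fibroblast and pericyte markers outside the rule gave 4 of 16 genes above the array median, against 61.0% of all named genes, and some of these 4 also have other sources in the kidney. Anpep, at 3831 ± 691, encodes a peptidase of the brush border, and Nt5e, at 997 ± 112, is found in proximal tubules as well as in fibroblasts. Vim, the intermediate filament gene of mesenchymal and endothelial cells, gave 85.0, 93.3 and 98.9, and Meox1 gave 1.35 ± 0.521.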
